A study of Mus musculus with 4 samples.

Results

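The livers of mice with a liver-specific ROCK1 KO and of control mice were compared for 10 genes that encode surface or lysosomal receptors of the cells lining the hepatic sinusoid. Of these, 7 belong to Kupffer cells (Cd163, Adgre1, Clec4f, Marco, Csf1r, Vsig4 and Cd68) and 3 to sinusoidal endothelial cells (Clec4g, Stab2 and Lyve1). They were taken by name from the 16593 genes with a symbol on the array, with every probe of each name kept. The array held 12 probes for 8 of them. No probe carried the symbol Csf1r or Cd68, so these genes have no value here.

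Kupffer cells are the resident macrophages of the liver. They sit in the sinusoid, depend on signals through the CSF1 receptor, and take up haemoglobin complexes, opsonised particles and bacteria from portal blood. Sinusoidal endothelial cells form a fenestrated lining without a full basement membrane, and they clear hyaluronan, modified proteins and small immune complexes through scavenger and lectin receptors. In mice Clec4f is the usual marker of Kupffer cells, and Stab2, Lyve1 and Clec4g are usual markers of the sinusoidal lining.

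ROCK1 is a kinase that drives actomyosin contraction. One group of mice lacked it through a liver-specific KO, and the other is labelled only as control. Both groups ate normal chow at will for 16 weeks. The labels give no age, sex or strain, nor the promoter that drove the deletion or the cells in which it acted. Each group had 2 arrays, all of total liver RNA on single-colour Illumina bead arrays, and nothing states that the arrays came from separate animals. The p-values therefore reflect how far these arrays differ within a group, which may be technical. In such bulk RNA, fewer cells of a type and less RNA per cell cannot be told apart.

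The 4 arrays had median intensities of 203.4 and 206.3 in ROCK1 KO and 144.9 and 136.9 in control, and the most frequent intensity, that of background, was 180.0 and 181.0 against 127.8 and 124.1. Intensities were therefore quantile-normalised, and levels below are log2(normalised intensity + 16) unless called intensities. A probe counted as above background over a level of 7.86, which is 3 SD above the mode. Rock1, the targeted gene, had levels of 8.06 and 7.91 in ROCK1 KO livers, against 8.51 and 8.51 in control livers (difference -0.53, limma adjusted p = 0.0181), but its intensities overlapped between the groups. The Alb probe, in a tissue whose main secreted protein is albumin, was above the limit on 0 ROCK1 KO arrays and 1 control array, so a probe at background does not show that a transcript is absent.

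Of the 12 probes, 4 were called lower in ROCK1 KO liver at a limma adjusted p under 0.05 and 0 were called higher, where 4.32% of all 25697 probes were called lower and 3.69% higher. The 4 were the brightest probes of Cd163, Adgre1, Clec4f and Clec4g. Each of them was above background on all 4 arrays. Of the 12 probes, 7 lay lower with no overlap of the levels of the groups, where 25.8% of all probes did. At an unadjusted p under 0.05, 6 of the 12 probes were lower and 0 higher, where 10.5% of all probes were lower and 11.5% higher. The 7 and the 6 both include Lyve1, which was at background, and a dimmer Adgre1 probe, and the 7 also the dimmer Clec4f probe. The receptor genes were chosen with earlier results of these data known. These counts are therefore a description, and an excess over the shares of all probes is no test.

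**Figure D1:**
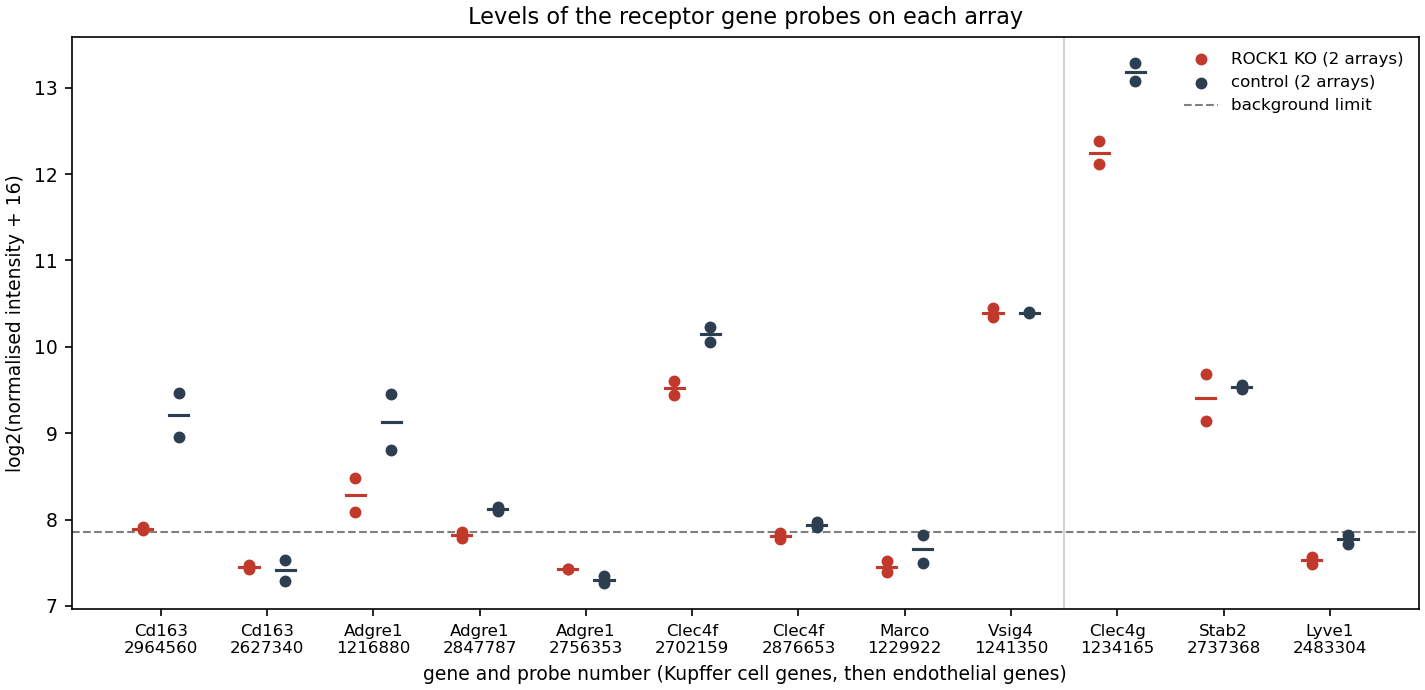
Level of each receptor gene probe, as log2(normalised intensity + 16), on the 2 ROCK1 KO arrays (red, left) and the 2 control arrays (dark, right), with a bar at each group mean and a dashed line at the background limit of 7.86. Kupffer cell genes stand left of the vertical line and endothelial genes right of it. Cd163, Adgre1, Clec4f and Clec4g separate on their brightest probe, and Vsig4 and Stab2 overlap.

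The windows around the transcription starts of the 3 genes that fell and have an entry in RefSeq's promoter table (build GRCm38.p6), and of Vsig4, a bright Kupffer gene that was not called, are shown so that the receptors that moved can be set beside one that did not. Each runs from 250 bases before the start to 50 after it and is printed 5′ to 3′ on the gene's strand. They lie at chr6:124304401-124304700 (plus strand) for Cd163, chr6:83656067-83656366 (minus strand) for Clec4f, chr8:3720602-3720901 (minus strand) for Clec4g and chrX:96293389-96293688 (minus strand) for Vsig4. Capitals mark GAGGAA on either strand, a run of letters bound by PU.1, the macrophage transcription factor. The shorter run GGAA within it was neither marked nor counted on its own.
Cd163: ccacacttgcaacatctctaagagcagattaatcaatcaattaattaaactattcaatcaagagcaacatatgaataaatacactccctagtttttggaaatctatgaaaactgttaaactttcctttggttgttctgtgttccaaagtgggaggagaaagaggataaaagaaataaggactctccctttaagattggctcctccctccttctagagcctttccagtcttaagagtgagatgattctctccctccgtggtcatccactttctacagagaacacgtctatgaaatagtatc
Clec4f: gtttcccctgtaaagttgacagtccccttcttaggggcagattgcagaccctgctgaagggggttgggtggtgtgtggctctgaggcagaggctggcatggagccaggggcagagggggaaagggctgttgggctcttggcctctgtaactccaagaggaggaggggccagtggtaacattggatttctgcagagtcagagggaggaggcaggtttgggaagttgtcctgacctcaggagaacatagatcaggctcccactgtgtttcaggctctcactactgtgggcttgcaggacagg
Clec4g: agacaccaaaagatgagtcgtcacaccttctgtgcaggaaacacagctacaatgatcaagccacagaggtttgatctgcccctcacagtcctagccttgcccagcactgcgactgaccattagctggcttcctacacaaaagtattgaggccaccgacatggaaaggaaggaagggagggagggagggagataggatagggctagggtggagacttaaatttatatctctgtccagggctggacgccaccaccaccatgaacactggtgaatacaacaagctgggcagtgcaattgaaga
Vsig4: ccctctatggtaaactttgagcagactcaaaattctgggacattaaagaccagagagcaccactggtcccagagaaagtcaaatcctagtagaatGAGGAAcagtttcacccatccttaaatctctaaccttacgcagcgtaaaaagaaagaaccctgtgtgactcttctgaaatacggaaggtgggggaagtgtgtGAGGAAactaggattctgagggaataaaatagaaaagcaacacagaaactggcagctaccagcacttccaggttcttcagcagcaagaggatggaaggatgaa

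Vsig4 held 2 matches to GAGGAA, and the windows of Cd163, Clec4f and Clec4g held 0. Of all 32851 windows of that length in the table, 28.3% held at least 1. Among the other receptor genes with an entry, Cd68 held 2 matches, Marco 1 and Stab2 0. The letters TGCTGA of a MAF half-site, found in 19.5% of all windows, occurred once each in Clec4f and Vsig4, with no overlap with GAGGAA, and AGATAA, letters bound by GATA factors and found in 11.2%, in 0 of the 7 windows. A match is only a run of letters, and a missing match says nothing about the factor. GC content was 38.0% in the Cd163 window, 57.3% in Clec4f, 51.0% in Clec4g and 44.3% in Vsig4, against a median of 52.7% over all windows.

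Cd163 is a macrophage scavenger receptor for haemoglobin, and it showed the largest difference of the 8 genes. Its brightest probe (ILMN_2964560) had intensities of 261.6 and 257.1 in ROCK1 KO livers, against 705.3 and 358.5 in control livers. After normalisation the levels were 7.91 and 7.88 in ROCK1 KO, against 9.47 and 8.96 in control. Both ROCK1 KO arrays lay just over the background limit, and the groups overlapped on neither scale, although the control arrays differed from each other. The difference was -1.32 (SE 0.16, 95% confidence interval -1.67 to -0.96, 2.49-fold lower, limma adjusted p = 0.000827), and 0.307% of all probes fell further. Its other probe (ILMN_2627340) was above background on 0 arrays, at 7.47 and 7.43 in ROCK1 KO and 7.53 and 7.29 in control, and gives no second reading. The call was kept without any 1 of the 4 arrays, with differences of -1.57 to -1.06.

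Marco, a class A scavenger receptor for bacteria and particles, was above background on 0 arrays. Its probe (ILMN_1229922) had levels of 7.39 and 7.52 in ROCK1 KO and 7.82 and 7.50 in control, which overlap. The difference of -0.21 (SE 0.12, limma adjusted p = 0.342) is therefore a reading of background, and no fold is given.

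Adgre1 encodes F4/80, the adhesion receptor of the G protein-coupled family by which mouse macrophages are commonly recognised. Its brightest probe (ILMN_1216880) had intensities of 294.2 and 384.6 in ROCK1 KO livers and 697.4 and 323.2 in control livers. These overlapped, because control replicate 2 lay between the ROCK1 KO arrays. After normalisation the levels were 8.09 and 8.48 in ROCK1 KO, against 9.45 and 8.81 in control, with no overlap. The difference was -0.84 (SE 0.20, 95% confidence interval -1.29 to -0.40, 1.80-fold lower, limma adjusted p = 0.0256). Without control replicate 1 it was -0.52 (adjusted p = 0.177) and without ROCK1 KO replicate 1 it was -0.65 (adjusted p = 0.106), so the call rested on these arrays.

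The other Adgre1 probes read differently. ILMN_2847787 had levels of 7.79 and 7.85 in ROCK1 KO, below the background limit, against 8.14 and 8.10 in control. It was not called (-0.30, 95% confidence interval -0.52 to -0.07, limma adjusted p = 0.116). ILMN_2756353 was above background on 0 arrays, at 7.43 and 7.43 in ROCK1 KO and 7.34 and 7.26 in control. Of the 3 probes of Adgre1, 1 thus carried the call.

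Vsig4, the complement receptor CRIg that captures C3-coated particles on Kupffer cells, was not called. Its intensities were 1461.7 and 1516.6 in ROCK1 KO livers, against 1401.8 and 951.1 in control livers. Its levels after normalisation were 10.34 and 10.45 in ROCK1 KO and 10.40 and 10.39 in control. Both ROCK1 KO arrays were higher before normalisation, where background was higher too, and the levels overlapped after it. Control replicate 2 was also dim as a whole before normalisation. Its 75th percentile of intensity was 266.2, against 344.7 in control replicate 1 and 401.9 and 397.5 in ROCK1 KO. The difference was 0.00 (SE 0.15, limma adjusted p = 0.996), with a 95% confidence interval of -0.33 to 0.34, which holds changes of up to about that size in either direction. It stayed between -0.05 and 0.06 under all 15 alternative fits.

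Clec4f and Clec4g are both C-type lectins, the first a galactose-binding receptor of mouse Kupffer cells and the second, LSECtin, a receptor of sinusoidal endothelium. The brightest Clec4f probe (ILMN_2702159) had intensities of 870.0 and 748.1 in ROCK1 KO livers and 1229.2 and 756.9 in control livers, which overlapped. Its levels were 9.60 and 9.44 in ROCK1 KO, against 10.23 and 10.06 in control, with no overlap. The difference was -0.63 (SE 0.15, 95% confidence interval -0.96 to -0.29, 1.54-fold lower, limma adjusted p = 0.0293). Leaving out control replicate 1, control replicate 2 or ROCK1 KO replicate 2 ended the call (adjusted p of 0.178, 0.0962 and 0.113, differences of -0.54, -0.71 and -0.55). The other Clec4f probe (ILMN_2876653) lay near the background limit, at 7.84 and 7.78 in ROCK1 KO and 7.97 and 7.91 in control (-0.12, limma adjusted p = 0.530).

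Clec4g, read by 1 probe (ILMN_1234165), fell in ROCK1 KO liver. It had intensities of 6127.4 and 4733.8 in ROCK1 KO livers, against 10319.7 and 6335.2 in control livers. Its levels were 12.38 and 12.12 in ROCK1 KO and 13.29 and 13.08 in control. Both ROCK1 KO arrays lay below both control arrays on either scale, despite the higher background of the ROCK1 KO arrays. The difference was -0.94 (SE 0.15, 95% confidence interval -1.26 to -0.61, 1.91-fold lower, limma adjusted p = 0.00323), and 1.04% of all probes fell further. Without control replicate 1 the difference was -0.83 with an adjusted p of 0.0503, and without any other single array the call was kept.

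Stab2 and Lyve1 both bind hyaluronan, Stab2 as the main clearance receptor of the sinusoid and Lyve1 as a receptor shared with lymphatic endothelium. Stab2 (ILMN_2737368) had levels of 9.14 and 9.68 in ROCK1 KO, against 9.56 and 9.51 in control, so the control arrays lay between the ROCK1 KO arrays. Its difference was -0.13 (SE 0.18, 95% confidence interval -0.52 to 0.27, limma adjusted p = 0.748), and it turned to 0.15 without ROCK1 KO replicate 1. Lyve1 (ILMN_2483304) was above background on 0 arrays. Its levels of 7.49 and 7.57 in ROCK1 KO lay below the 7.82 and 7.72 in control, a difference of -0.24 (SE 0.10, limma adjusted p = 0.173).

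**Figure D2:**
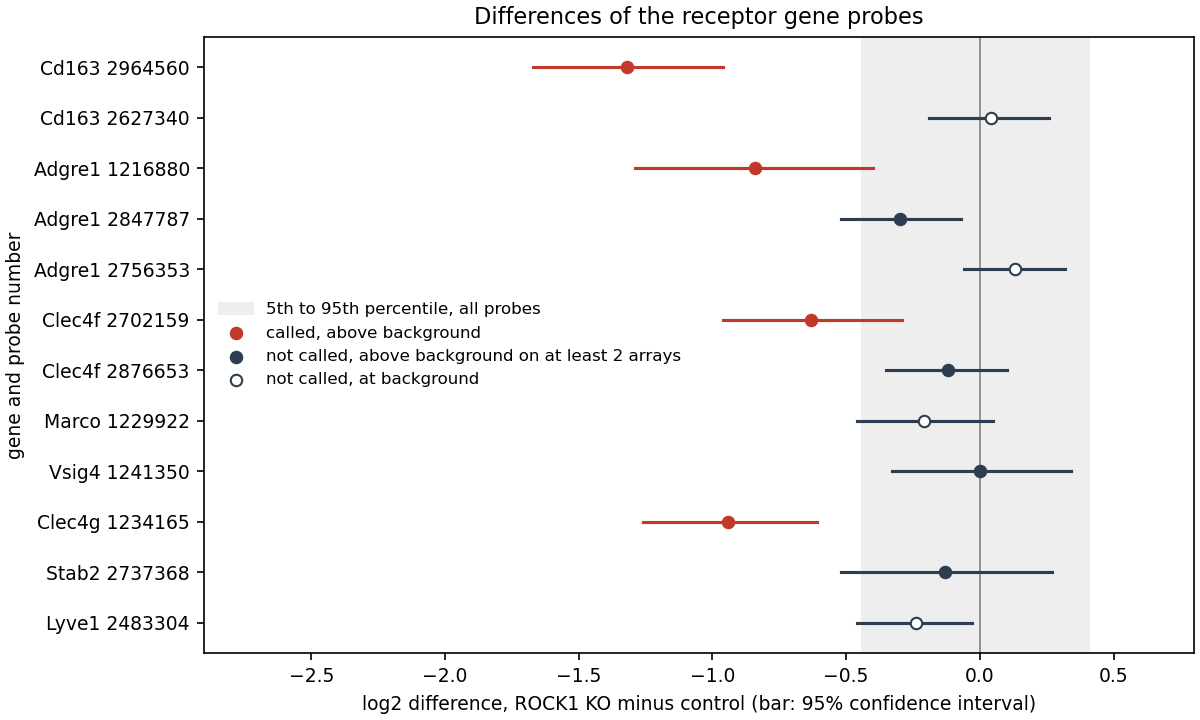
Log2 difference, ROCK1 KO minus control, of each receptor gene probe with its 95% confidence interval from limma. Red points are called, open points are above background on fewer than 2 arrays, and the grey band spans the 5th to 95th percentile of all probes (-0.44 to 0.41). The brightest probes of Cd163, Adgre1, Clec4f and Clec4g lie left of the band.

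The Kupffer genes and the endothelial genes each held called and uncalled receptors. With each gene read by its brightest probe, the median difference was -0.63 over the 5 measured Kupffer genes and -0.24 over the 3 endothelial genes, against 0.0037 over all genes on the array. The endothelial median is the value of Lyve1, which was at background. It became -0.53 with either filter on dim probes, -0.39 with normexp and quantile normalisation, -0.15 with 75th percentile scaling and -0.40 without ROCK1 KO replicate 2, and the Kupffer median became -0.34 with all probes of a gene averaged. The mean level of the Kupffer genes minus that of the endothelial genes was -1.00 and -1.04 on the ROCK1 KO arrays and -0.75 and -0.96 on the control arrays. That is a difference of -0.16, which became 0.12 when all probes of a gene were averaged. Each endothelial gene had 1 probe, so averaging altered the Kupffer genes alone. It brought in the dimmer probes of Cd163, Adgre1 and Clec4f. The dimmer Cd163 probe and Adgre1 ILMN_2756353 were above background on 0 arrays of either group. Adgre1 ILMN_2847787 and the dimmer Clec4f probe were above it on the 2 control arrays and on 0 ROCK1 KO arrays. The direction of this contrast thus depended on whether those dim probes were counted.

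Other markers of the same cells were read beside the receptors. Of 7 further measured Kupffer cell markers, 0 were called in either direction by limma (median difference -0.04). Of all genes read by their brightest probe, 4.63% were called lower and 4.20% higher. At an unadjusted limma p under 0.05, 1 of the 7 (Timd4) was lower, where 10.5% of all probes were lower and 11.5% higher. These shares of all probes also belong beside the unadjusted counts of the lists below. Timd4, a phosphatidylserine receptor of resident Kupffer cells, had levels of 7.93 and 7.91 in ROCK1 KO, against 8.32 and 8.18 in control (-0.33, limma adjusted p = 0.102). The complement C1q chain genes C1qa, C1qb and C1qc read -0.10, -0.04 and -0.15, with adjusted p of 0.672, 0.910 and 0.687, and Folr2, a folate receptor gene, read 0.11 (0.589). Cd5l, a secreted macrophage protein, was above background on 0 arrays. C6, at 0.20 (adjusted p = 0.559), encodes a complement protein that hepatocytes make too. The 12 measured Kupffer cell markers together had a summed normalised intensity of 12286 and 12162 on the ROCK1 KO arrays, between the 14292 and 10899 of the control arrays. C6 was the brightest of them. Without it, the other 11 markers reached 5014 and 4875 on the ROCK1 KO arrays, below the 6664 and 5626 of the control arrays. That sum was added after the values were seen and holds the receptor genes, the called Cd163, Adgre1 and Clec4f among them. The 7 further markers alone, C6 included, summed to 9611 and 9371 in ROCK1 KO, between the 10183 and 7446 in control.

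Of 11 further markers of sinusoidal endothelium, 1 was called lower and 0 higher (median -0.14). The one called was Fcgr2b, the inhibitory Fc receptor by which these cells clear small immune complexes. Its levels were 9.14 and 9.28 in ROCK1 KO, against 9.95 and 9.99 in control, with no overlap (-0.76, SE 0.15, limma adjusted p = 0.00878). The call was lost without control replicate 1 or control replicate 2 (highest adjusted p = 0.0759), and another bright Fcgr2b probe read -0.35 (adjusted p = 0.0861). Stab1, the paralogue of Stab2, read -0.19 (adjusted p = 0.472). Dnase1l3, a secreted nuclease gene, read 0.52 (adjusted p = 0.0526), at 10.16 and 10.19 in ROCK1 KO and 9.63 and 9.68 in control. It was called higher in 8 of the 15 alternative fits, while Ehd3 was called lower in 4 and Oit3 in 1. Of 12 general endothelial markers 0 were called by limma and 0 had an unadjusted p under 0.05 (median -0.06), and Pecam1 read -0.06 (adjusted p = 0.846).

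**Figure D3:**
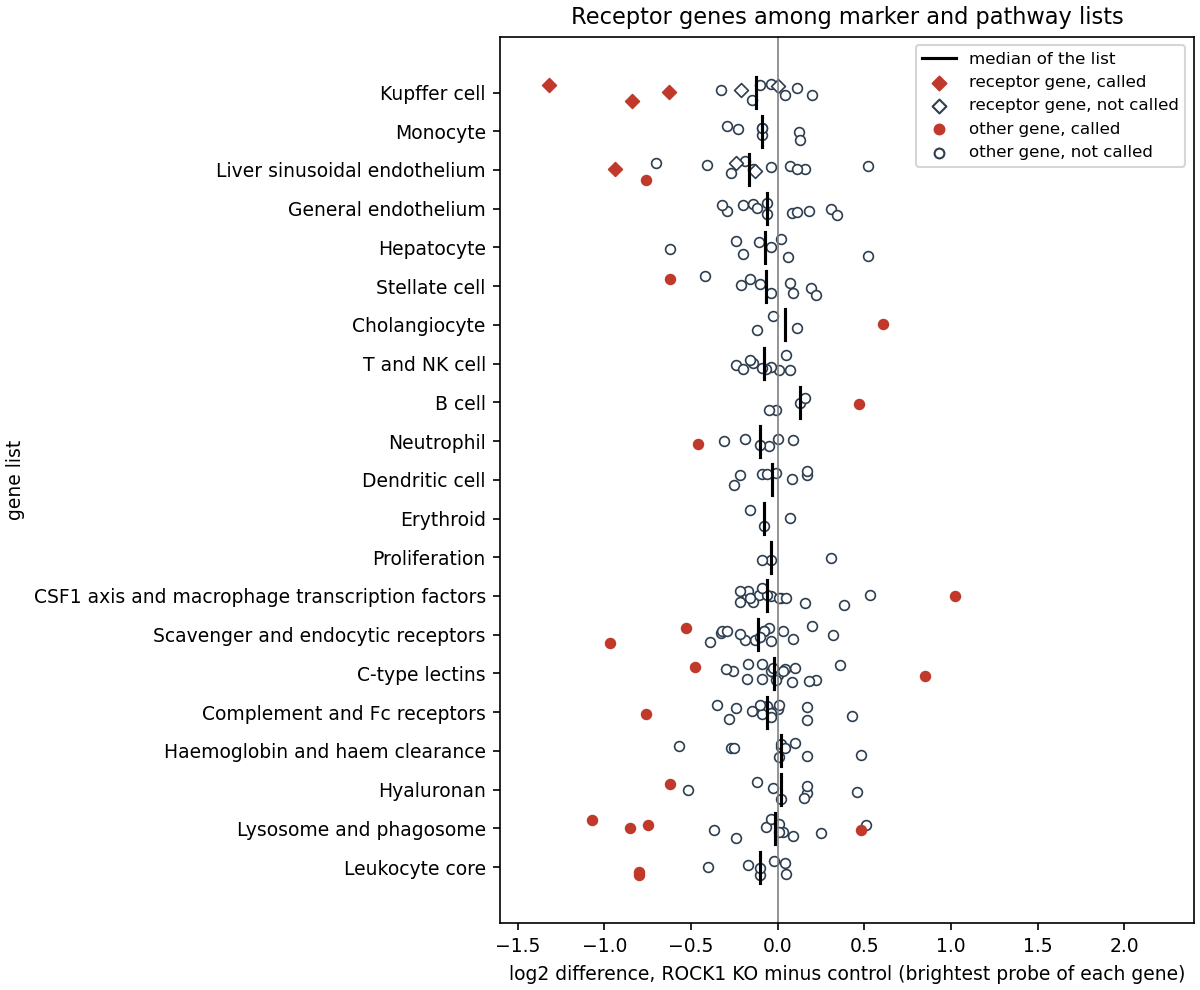
Log2 difference, ROCK1 KO minus control, of every measured gene in 21 marker and pathway lists, each gene read by its brightest probe. Diamonds are the receptor genes, circles other genes, red symbols are called, and a black bar marks each list's median. Most lists centre near 0, and Cd163 and Clec4g lie at the low end of their lists.

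Genes linked to these receptors or to what they bind were mostly at background or not called. Of 17 genes of the CSF1 axis and macrophage transcription factors, 1 was called higher and 0 lower, and 11 were above background on 0 arrays. Those at background included Csf1 and Il34, which encode the ligands of the CSF1 receptor, and Spi1, which encodes PU.1. The gene called higher was Cebpa, a transcription factor gene of hepatocytes as well as myeloid cells, at 9.81 and 10.09 in ROCK1 KO, against 8.87 and 8.99 in control (1.02, SE 0.15, limma adjusted p = 0.00246). Nr1h3, which encodes LXR alpha, a factor of Kupffer cell identity that hepatocytes also express, read 0.38 (adjusted p = 0.151). Hp, the gene of the haemoglobin-binding plasma protein haptoglobin, had levels of 15.61 and 15.58 in ROCK1 KO, against 15.91 and 15.82 in control (-0.27, limma adjusted p = 0.0621). Hp was called lower in 3 of the 15 alternative fits, and its intensities of 46270.6 to 64276.4 set it among the brightest probes, where the highest intensity of an array was 64763 to 69738. Of 10 genes of haemoglobin and haem clearance 0 were called by limma and 3 had an unadjusted p under 0.05.

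Of 18 other scavenger and endocytic receptors, 0 were called higher and 2 lower. Lrp1, a large endocytic receptor of hepatocytes and macrophages, fell to 8.42 and 8.79 in ROCK1 KO, against 9.45 and 9.70 in control (-0.97, SE 0.16, limma adjusted p = 0.00436, lost without control replicate 2 at 0.0574). Scarb1, the HDL receptor gene, was at least 1.15-fold lower, a call lost with 75th percentile scaling and without control replicate 2 or ROCK1 KO replicate 1 (highest adjusted p = 0.104). Of 20 other C-type lectins, 1 was called higher and 1 lower. The one higher was Asgr2, a subunit of the hepatocyte asialoglycoprotein receptor, at 11.65 and 11.62 in ROCK1 KO, against 10.85 and 10.71 in control (0.85, adjusted p = 0.00619, lost without control replicate 2 at 0.0699). The one lower was Clec7a, the beta-glucan receptor dectin-1, at least 1.08-fold lower, a call lost with 75th percentile scaling and without control replicate 1 or ROCK1 KO replicate 2 (highest adjusted p = 0.133). Fcgr2b was the 1 of 15 complement and Fc receptor genes that was called.

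Of 9 hyaluronan genes, 0 were called higher and 1 lower. That was Hyal2, a hyaluronidase gene (-0.62, limma adjusted p = 0.0267), which was no longer called after leaving out control replicate 1, control replicate 2 or ROCK1 KO replicate 2 (highest adjusted p = 0.157). Of 14 lysosome and phagosome genes, 1 was called higher and 3 lower. The 3 were the cathepsin genes Ctsz (-1.07) and Ctsb (-0.85) and the cholesterol carrier gene Npc2 (-0.75), with limma adjusted p of 0.00173, 0.00179 and 0.00729. The second bright Ctsz probe was also called lower (-0.72, adjusted p = 0.0188), and Npc2 lost its call without control replicate 2 (0.0742). Ctsd, another cathepsin gene, was at least 1.13-fold higher, a call lost without control replicate 1, control replicate 2 or ROCK1 KO replicate 1 (highest adjusted p = 0.119). These genes are used by hepatocytes as well as macrophages.

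Markers of other blood and liver cells were read on the same arrays, and most were not called. Of 9 genes common to leukocytes, 0 were called higher and 2 lower: Laptm5, a lysosomal protein gene, at 10.06 and 9.99 in ROCK1 KO and 11.02 and 10.62 in control (-0.80, limma adjusted p = 0.0165, lost without control replicate 1 at 0.150), and Cd53, a tetraspanin gene, at least 1.34-fold lower (adjusted p = 0.00206). Ptprc, the CD45 gene, was above background on 0 arrays. The summed normalised intensity of these 9 genes was 2931 and 2917 on the ROCK1 KO arrays, against 4275 and 3633 on the control arrays. Laptm5, the brightest of them, made up most of that gap, and 4 of the 9 were above background on 0 arrays. The part of this sum in the receptor differences was not tested. Of 7 monocyte markers 0 were called by limma (2 at an unadjusted p under 0.05), with sums of 1682 and 1574 in ROCK1 KO against 1739 and 1660 in control. Ccr2 and Itgam were above background on 0 arrays. Lyz2, a marker in this list, was read by its brightest probe (-0.09). Another bright Lyz2 probe (ILMN_2939681), left out of that count and sum, was called lower (-1.42, limma adjusted p = 0.000359). All 10 T and NK cell markers and all 8 dendritic cell markers were above background on 0 arrays, and 0 of either list were called by limma (1 of each at an unadjusted p under 0.05).

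Among the remaining lists, 1 of 7 neutrophil markers was called lower (S100a9) and 1 of 5 B cell markers higher (Ms4a1), both above background on 0 arrays. The S100a9 call was lost in 5 of 13 alternative fits, 75th percentile scaling among them (highest adjusted p = 0.207), and the Ms4a1 call without control replicate 1 (0.113). Of 10 stellate cell markers 1 was called lower (Col3a1, at least 1.17-fold), of 4 cholangiocyte markers 1 higher (Sox9, 0.61), and of 8 hepatocyte, 3 erythroid and 3 proliferation markers 0 by limma (3, 0 and 1 at an unadjusted p under 0.05). The Col3a1 call was lost without control replicate 1 or ROCK1 KO replicate 1 (highest adjusted p = 0.0877), and the Sox9 call without control replicate 1, control replicate 2 or ROCK1 KO replicate 2 (highest 0.0973). Among the hepatocyte markers, Apoa1, Ttr and Ahsg lay at over 0.5 of the highest intensity on every array, near the top of the range. All 8 hepatocyte markers summed to 214249 and 208586 in ROCK1 KO, which overlapped the 204953 and 215112 in control. The other 5, a sum added after the values were seen, reached 36531 and 35361 in ROCK1 KO, against 23731 and 35031 in control. Cps1, a urea cycle enzyme gene, made up most of the sum of those 5. Cps1 read 0.52 (limma adjusted p = 0.110) and Hnf4a, a hepatocyte transcription factor gene, -0.62 (0.0540, called lower in 8 of the 15 alternative fits).

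The genes above background whose levels over the 4 arrays, centred on their own mean, lay nearest to those of Cd163 were Grtp1, Lyz2 and Ankrd46, at Euclidean distances of 0.0973, 0.164 and 0.167. Lyz2 encodes the lysozyme of myeloid cells, and this probe (ILMN_2939681) had levels of 8.21 and 8.08 in ROCK1 KO, against 9.74 and 9.39 in control (-1.42, limma adjusted p = 0.000359). The brightest Lyz2 probe over all arrays was ILMN_1252076, at 9.04 and 8.93 in ROCK1 KO and 9.22 and 8.93 in control (-0.09, adjusted p = 0.778), so the Lyz2 probes disagreed. The nearest to Clec4g were Eci2, Nsmf and Rnf125, at 0.0258, 0.0711 and 0.0806. All of these probes were picked for their nearness, so a fall like that of Cd163 or Clec4g follows from the choice and is no separate reading. With 4 arrays such distances describe these arrays alone.

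**Figure D4:**
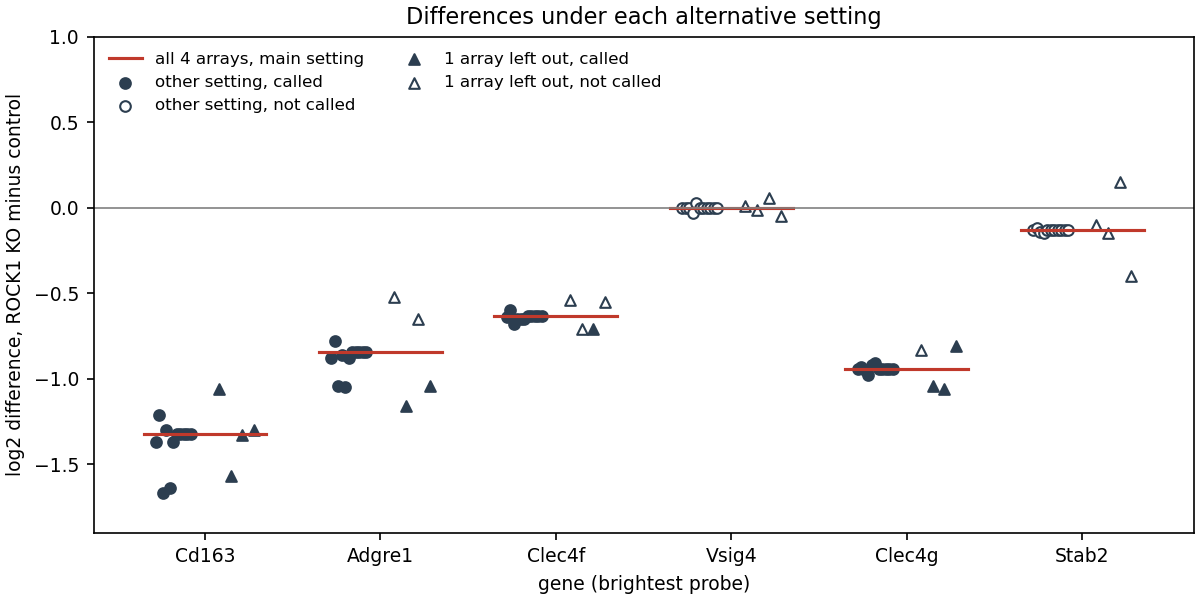
Log2 difference, ROCK1 KO minus control, of the brightest probes of the 6 receptor genes above background on all 4 arrays, under each alternative. Red bars give all 4 arrays in the main setting, circles other settings and triangles fits with 1 array left out, filled where the probe was called. Cd163 was called in all 15 alternative fits, and Vsig4 and Stab2 in 0.

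Over the 15 alternative fits, Cd163 ran from -1.67 to -1.06, Clec4g from -1.06 to -0.81, Clec4f from -0.71 to -0.54 and Adgre1 from -1.16 to -0.52. The most negative Cd163 values came with normexp background correction (-1.67 with quantile normalisation, -1.64 with 75th percentile scaling). Calls of the brightest probes were lost in 0 fits for Cd163, 1 for Clec4g, 2 for Adgre1 and 3 for Clec4f, each of which had left out an array. The authors' deposited log2 values gave -1.37 for Cd163, -0.91 for Clec4g, -0.88 for Adgre1 and -0.65 for Clec4f.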

How the data were processed

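Per the file headers, the deposited intensities are 1 linear value per probe and array. Their lowest values were 79.2 to 109.7, so background was still in them. The authors' deposited table also holds log2 values, which rank the probes as the intensities do (rank correlation 1) and share nearly the same median, 7.628 to 7.632, close to quantile normalisation. Their scale is log2, no gene centring was found, and the tool that made them is not stated in the labels.

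Intensities were quantile-normalised and an offset of 16 was added before log2 without background correction, so differences of dim probes are understated. Tests used limma 3.58.1 in R 4.3.3 with an intensity trend and no block, two-sided, with Benjamini-Hochberg adjustment over all 25697 probes. On simulated arrays 200 probes were changed, all drawn from those above background on at least 2 arrays. Of the 1.5-fold changes 26.4% were called, of the 2-fold changes 90.6% and of the 4-fold changes 100%. In the data 2060 probes were called, and adjustment depends on the share of probes changed, so these rates need not hold here. They do not cover dim probes. The number of arrays limits the precision. Symbols came from the platform annotation: 23978 probes had 1, 0 had several and 1719 had none, and 23962 matched a RefSeq table by gene identifier with 0 changes. A gene in a list was read by its brightest probe. The 21 lists held 225 genes, of which 204 were measured.

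The genes, lists and tests were chosen with earlier results of these data known. The rule for named genes took all 10 receptor genes, Rock1 and called genes of each list (at most 6). It also took genes listed as ligands or partners (Csf1, Il34, Spi1, Hp, Stab1, Nr1h3, Timd4, Cd5l). The 3 nearest profiles of the 2 largest called differences were named too. Alb, Lyz2 and the uncalled C1qa, C1qb, C1qc, Folr2, C6, Dnase1l3, Ehd3, Oit3, Cps1, Hnf4a, Apoa1, Ttr, Ahsg, Pecam1, Ptprc, Ccr2 and Itgam were named after their values were seen. Where a group had no array above the background limit, a fold is a bound, in which the dim arrays are raised to the lowest level above that limit. Alternatives covered the offset, background correction, normalisation, the authors' values, dim-probe filters, variance model, replicate block, each array left out, the threshold and the probe per gene. Figures used matplotlib 3.10.9.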

Additional observations from a re-analysis of the deposited data

How the results depend on the processing

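With all 4 arrays, the 4 calls among the receptor gene probes were kept under the 11 other fits and at an adjusted p under 0.1, and 2 were kept under 0.01. With 1 array left out, between 1 (without control replicate 1) and 3 of these probes were called lower, and 0 were called higher under any setting. Over all probes, 2060 were called with all arrays, 789 to 1727 with 1 array left out, 795 at an adjusted p under 0.01 and 3200 under 0.1. The median difference of the Kupffer genes, -0.63, became -0.34 when all probes of a gene were averaged, and ran from -0.71 to -0.52 with 1 array left out. That of the endothelial genes, -0.24, became -0.39 with normexp and quantile normalisation, -0.15 with 75th percentile scaling, -0.53 with either filter on dim probes, which leaves fewer genes, and ran from -0.40 to -0.19 with 1 array left out. The Kupffer minus endothelial difference, -0.16, became 0.12 when all probes of a gene were averaged, which altered the Kupffer genes alone. It ran from -0.27 to -0.06 with 1 array left out. Of the 183 list genes not called, 21 were called under at least 1 alternative fit. The cause of these changes was not tested. Without control replicate 1, Adgre1, Clec4f and Clec4g lost their calls. The replicate block called 2920 probes and kept the 4 receptor calls. Same-numbered arrays did not deviate together (correlation -0.057 across probes), and the labels state no pairing. Signal near background limits the readings of Marco, Lyve1 and the dimmer Cd163, Adgre1 and Clec4f probes.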
